A study of Rattus norvegicus with 145 samples.

Results

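Sex differences of the adult rat liver were measured in the vehicle controls of a study of acetamide, a food contaminant, by RNA-Seq of the left lobe. Of 145 rats in the series, the 20 used here received the water vehicle (dose 0) by daily gavage, as 5 males and 5 females after 7 days and 5 males and 5 females after 28 days. All were intact Crl:WI (Wistar) rats, 8 to 10 weeks old when gavage began, and they share no genetic modification. Rats gavaged for 28 days were therefore older when sampled, and age and duration cannot be told apart. Per the study's methods they share an overnight fast before sampling, and no treatment other than this and the gavage. They were chosen by their labels for sex, duration and dose, and not by any measured value. Another 20 rats of the same strain and age, given 300 mg/kg/day acetamide, served as other animals in which the same comparison was made. The males of 28 days carry the label of another exposure experiment, but their strain, title and the study's design place them with the other groups. Each sex and duration was deposited as a table of its own, so that sex and table cannot be told apart.

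In rats, the pituitary secretes growth hormone in separated pulses in males and more continuously in females, and the liver reads this pattern through the growth hormone receptor, the kinase JAK2 and the transcription factor STAT5b. Many cytochrome P450s, sulfotransferases, steroid-metabolising enzymes and secreted proteins of the rat liver are known for sex-specific expression. Cyp2c11, a steroid hydroxylase, is the classical male-specific P450 and Cyp2c12 its female-specific counterpart. In RNA of whole tissue, fewer cells of a type and less RNA per cell cannot be told apart.

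Reads on genes numbered 20196236 to 34018491 per rat, with a median of 29961086. Alb was the most abundant of the hepatocyte markers, and all 10 of these markers were detected in every rat. The first principal component held 45.9% of the variance and separated the sexes completely. The Y-linked Eif2s3y was at 36.5 to 64.5 CPM (counts scaled to the rat's library size) in males and at 0 to 0.0741 CPM in females. Ddx3y, also assigned to the Y chromosome, did not separate the labels, at 5.1 to 11.3 CPM in males and 4 to 12 CPM in females. The gene listed as Ddx3 was at 56.6 to 125 CPM in males and 0 to 0.166 CPM in females, and was left out of the autosomal genes because that symbol is also a synonym of Ddx3y.

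A gene was called when males and females differed at least 1.5-fold with an adjusted p of at most 0.05 in edgeR's quasi-likelihood test, over 11224 genes tested. Log2 fold changes are given as males minus females, with the standard error. After 7 days 896 genes were called, or 7.98% of those tested, with 466 higher in males and 430 higher in females. After 28 days 1326 genes were called, or 11.8%, with 650 higher in males and 676 higher in females. At both times and in the same direction 612 genes were called, or 5.45%, of which 576 are autosomal. Of the 576, 295 were male-higher and 281 female-higher, where 2.82% and 2.64% of all genes tested were called in these directions, and 0 autosomal genes were called in opposite directions. Just inside the fold threshold lay Decr2, with log2 fold changes of 0.67 and 0.59, and just outside it lay Psip1, with 0.58 and 0.64.

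**Figure D1:**
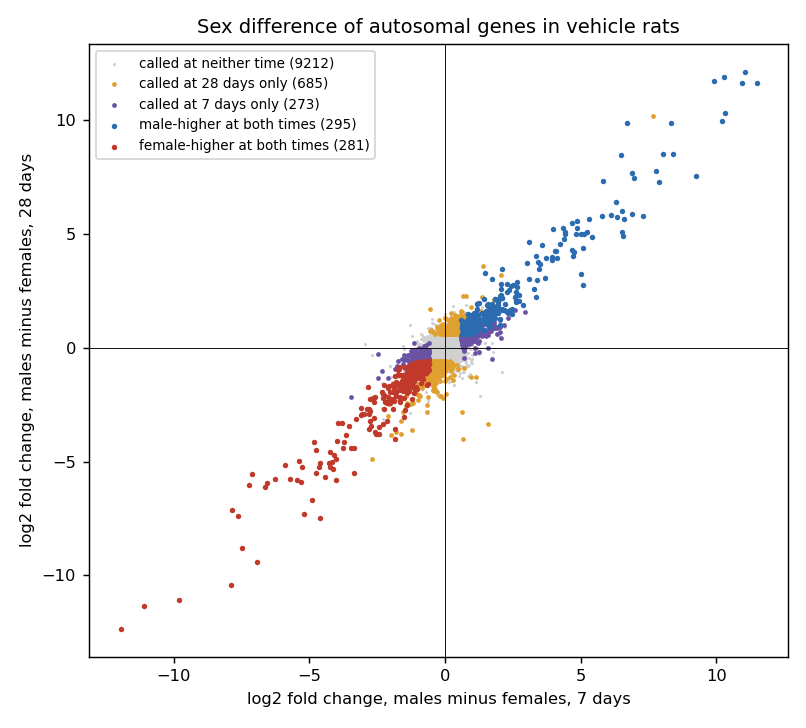
Log2 fold change (males minus females) of each autosomal gene tested after 7 days (x axis) and after 28 days (y axis) in vehicle rats, coloured by call. The 295 male-higher genes lie in the upper right and the 281 female-higher genes in the lower left, and both arms reach beyond a log2 fold change of 10.

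The range of sizes was wide. Of the 295 male-higher genes, 179 differed at least 2-fold at both times, 88 at least 4-fold, 58 at least 10-fold and 16 at least 100-fold. Of the 281 female-higher genes the numbers were 182, 79, 44 and 8. For 192 of the male-higher and 178 of the female-higher genes the sexes did not overlap at either time. Over all genes tested the males lay above at both times for 2.25% and the females for 2.09%, or 4.35% together. Across the 576 genes the log2 fold changes of the 2 times had a median absolute difference of 0.24, and 307 were larger after 28 days. Genes are not independent replicates, and both times contributed to the choice of these genes.

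Promoters of Cyp2c11, Cyp2c12 and A1bg are printed from RefSeq (build GRCr8), from 250 bases before the gene start to 50 after it. Cyp2c11 and A1bg lie near the ends of this range, and Cyp2c12 was taken as the female-specific counterpart of Cyp2c11. Capitals mark TTCNNNGAA, a motif of the type bound by STAT5, which reads the same on both strands.

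Cyp2c11, male-higher, chr1:246174966-246175265, plus strand: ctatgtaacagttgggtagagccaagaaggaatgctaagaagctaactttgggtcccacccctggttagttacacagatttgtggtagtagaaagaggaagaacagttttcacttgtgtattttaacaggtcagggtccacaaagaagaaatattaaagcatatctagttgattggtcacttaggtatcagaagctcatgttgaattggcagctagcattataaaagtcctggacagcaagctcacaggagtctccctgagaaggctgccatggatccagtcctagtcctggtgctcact
Cyp2c12, female-higher, chr1:248676985-248677284, minus strand: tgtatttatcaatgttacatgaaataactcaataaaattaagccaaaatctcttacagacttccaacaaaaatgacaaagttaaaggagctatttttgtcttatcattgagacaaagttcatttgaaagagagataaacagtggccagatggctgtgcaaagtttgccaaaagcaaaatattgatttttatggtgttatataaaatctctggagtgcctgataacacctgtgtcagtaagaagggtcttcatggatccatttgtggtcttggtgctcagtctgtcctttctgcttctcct
A1bg, female-higher, chr7:94387447-94387746, minus strand: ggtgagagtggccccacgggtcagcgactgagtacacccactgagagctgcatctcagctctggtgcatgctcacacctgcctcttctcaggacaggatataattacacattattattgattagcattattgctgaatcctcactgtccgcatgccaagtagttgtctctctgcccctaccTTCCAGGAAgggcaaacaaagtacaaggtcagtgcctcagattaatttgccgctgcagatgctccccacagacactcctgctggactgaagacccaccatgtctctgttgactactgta

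The A1bg window holds TTCCAGGAA, and the letters of the motif are in neither of the other windows. Over the autosomal genes called at both times, 14 of 228 male-higher promoters (6.14%) and 10 of 227 female-higher promoters (4.41%) hold the motif. The share was 6.87% of 9055 promoters of genes tested and 8.68% of 27457 promoters in the table. A match is a description of the letters and not a binding site.

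Among the P450 enzymes of families 1 to 4, which oxidise steroids, fatty acids and drugs, 10 of 42 genes tested were male-higher and 6 female-higher at both times. Over all genes tested the shares were 2.82% and 2.64%. Cyp2c11 was at 1091, 1588, 1905, 988 and 1501 CPM in the males of 7 days and at 2.16, 0.111, 0.148, 0.206 and 0.669 CPM in the females. After 28 days it was at 1319, 1406, 1304, 2031 and 962 CPM in males and 0.361, 0.118, 0, 0.814 and 0.296 CPM in females. The sexes did not overlap, with log2 fold changes of 11.05 ± 0.76 and 12.11 ± 0.80 (adjusted p = 2.15e-09 and 1.04e-09). Cyp2c12 was at 75.1, 160.4, 56, 66 and 245 CPM in the males of 7 days and 5932, 3099, 3604, 4299 and 4947 CPM in the females. After 28 days the values were 21.4, 15.4, 67.8, 22.7 and 18 CPM in males and 5117, 3288, 2323, 4959 and 7176 CPM in females. Every female lay above every male, with log2 fold changes of -5.18 ± 0.51 and -7.30 ± 0.57 (adjusted p = 5.02e-07 and 1.21e-08).

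Other male-higher P450s were also widely separated. Cyp2c13 had log2 fold changes of 10.32 ± 0.53 and 10.30 ± 0.53, and Cyp3a2, a testosterone hydroxylase, of 8.04 ± 0.45 and 8.52 ± 0.46. Cyp4a2, a fatty acid hydroxylase, was at 23.8 to 92.3 CPM in the males of 7 days and at 0 to 0.199 CPM in the females. After 28 days it was at 10.9 to 82.2 CPM in males, while all 5 females together held 1 count, a ratio of 5485 with a counting interval (95%) of 984 to 216675. Cyp2a2 and Cyp3a18 had log2 fold changes of 6.50 and 4.03 after 7 days and 8.46 and 4.23 after 28 days. The female-higher P450s besides Cyp2c12 differed less: Cyp3a9 by -3.09 and -2.63, Cyp2a1 by -1.62 and -1.53, and Cyp1a2 by -1.28 and -1.30. Some members of these families are close copies of each other. In a rat, 14.7 to 34.3% of the counted reads were set aside for low alignment quality. The division of reads among such close copies is therefore uncertain.

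**Figure D2:**
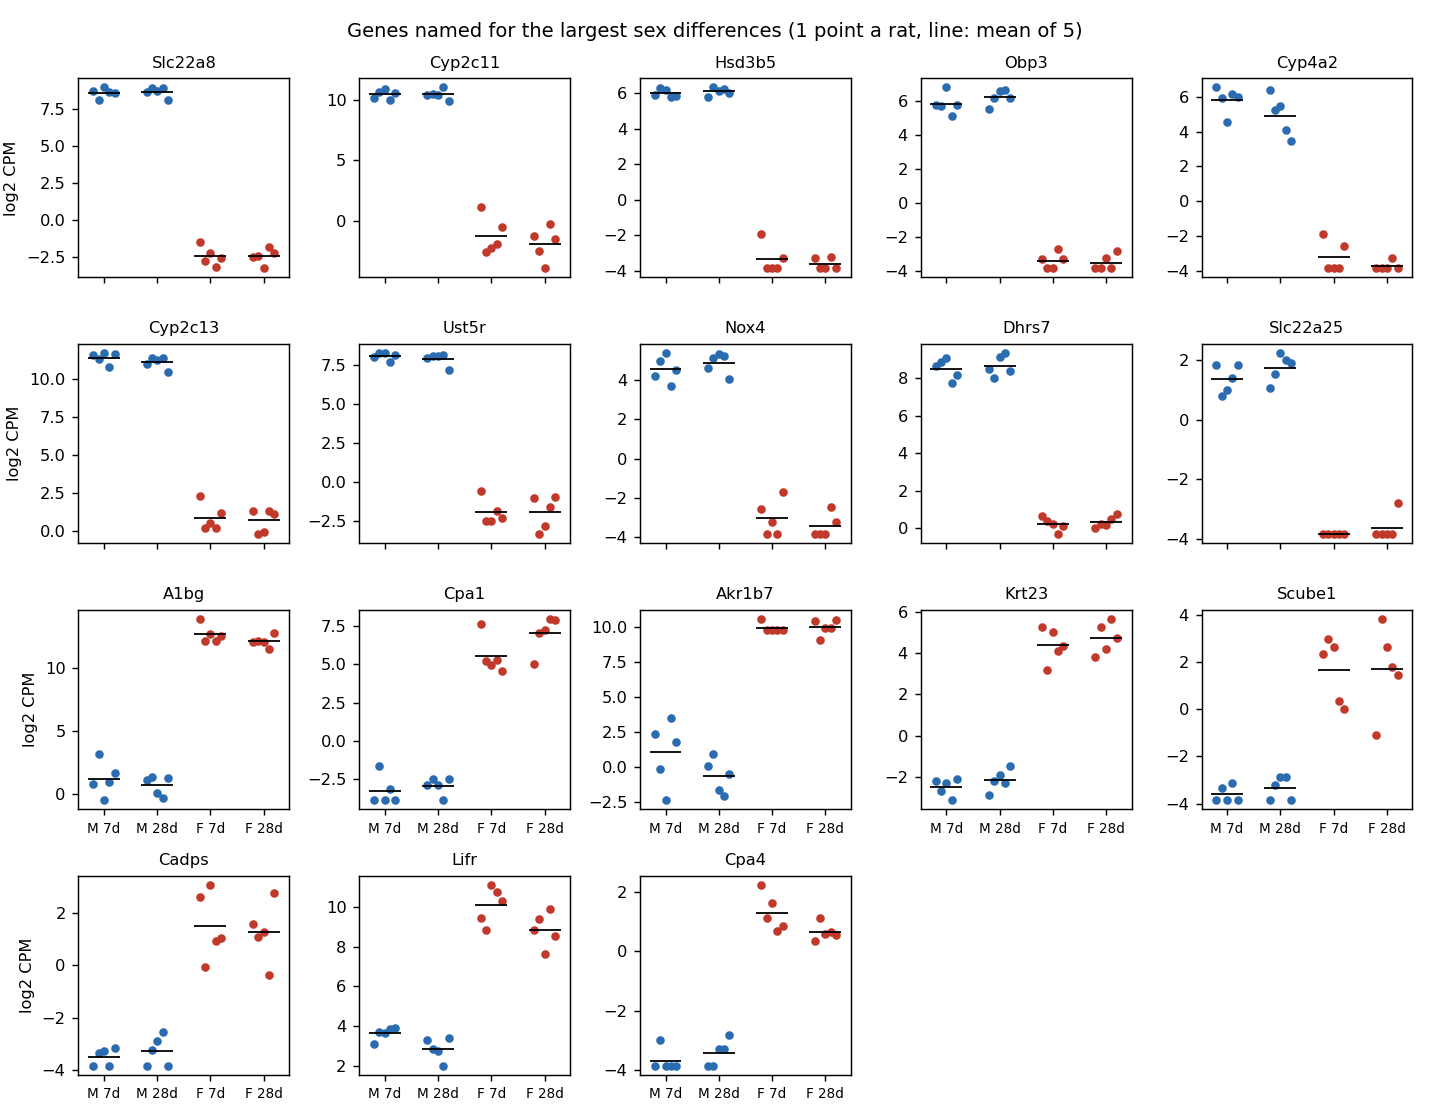
Expression (log2 CPM, y axis) of autosomal genes named for the largest sex differences, in males (blue) and females (red) after 7 and 28 days, with 1 point a rat and the mean of 5 as a line. Males and females do not overlap in any panel because the choice of genes required it.

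Beyond the P450s, the 10 male-higher autosomal genes of largest mean difference include transporters and steroid enzymes. Slc22a8, an organic anion transporter, was at 421, 274, 502, 410.4 and 394 CPM in the males of 7 days and at 0.0411 to 0.299 CPM in the females. After 28 days it was at 276 to 498 CPM in males and 0.0374 to 0.222 CPM in females. The log2 fold changes were 11.48 ± 0.36 and 11.64 ± 0.36 (adjusted p = 9.71e-15 and 8.9e-15), and the sexes did not overlap. Ust5r, of the same transporter family, had log2 fold changes of 10.19 and 9.97. Slc22a25, another member, was at 0 counts in all 5 females of 7 days and at 1.68 to 3.53 CPM in males, at least 25.6-fold higher against a floor of 3 counts per library. Hsd3b5, a steroid dehydrogenase of the male liver, was at 59.6, 78.8, 72.3, 56.1 and 57.5 CPM in the males of 7 days and 0.199, 0, 0, 0 and 0.0335 CPM in the females. After 28 days its males lay at 55.6 to 80 CPM and the 5 females held 2 counts together, a ratio of 4916 with a counting interval (95%) of 1360 to 40597. Dhrs7, a short-chain dehydrogenase, differed by 8.39 ± 0.35 and 8.49 ± 0.35 on the log2 scale, and Nox4, an NADPH oxidase, by 8.34 and 9.87.

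Among the female-higher genes of largest mean difference were secreted and membrane proteins. A1bg, a plasma glycoprotein, was at 14732, 4381, 6511, 4501 and 5834 CPM in the females of 7 days and at 0.653 to 9.02 CPM in the males. After 28 days the females lay at 2942 to 6910.5 CPM and the males at 0.742 to 2.51 CPM, with log2 fold changes of -11.09 ± 0.74 and -11.34 ± 0.75 at the 2 times. Lifr, the receptor of leukemia inhibitory factor, was at 464 to 2190.0 CPM in the females of 7 days and 8.43 to 15.3 CPM in the males, with no overlap. Akr1b7, an aldo-keto reductase, differed by -7.89 ± 0.82 and -10.40 ± 0.92.

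The carboxypeptidases Cpa1 and Cpa4 and the keratin Krt23 stood with these genes. Cpa1, which is also a marker of the exocrine pancreas, was at 199, 37.6, 31.7, 39.2 and 23.7 CPM in the females of 7 days and at 0 to 0.252 CPM in the males. After 28 days it was at 32.2, 133, 156, 249 and 242 CPM in females and at most 0.111 CPM in males. Of the other pancreatic markers, Prss1 and Pnlip were at 0 counts in all 20 rats and Ctrb1 was at 0 in 14. Cpb1 was detected in every rat, at a mean of 0.865 CPM. Cela1 was male-higher, with log2 fold changes of 2.17 and 1.66. Where the Cpa1 RNA came from was not tested.

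Urinary alpha2u-globulins are small lipid-binding proteins that the male liver secretes. Of 8 such genes in the files 3 could be tested, and all 3 were male-higher at both times (2.82% of all genes). The 5 females of 7 days together held 33 counts of LOC259244, 4 of Obp3 and 5 of LOC298116. These genes thus passed the filter on low counts through the males, which fixed their direction. That all 3 were male-higher is therefore no result about the family. LOC259244 was at 453 to 915 CPM in the males of 7 days and at 0 to 0.73 CPM in the females. Obp3 was at 54.5, 53.9, 113, 34.4 and 56.1 CPM in males and 0.0332, 0, 0, 0.0823 and 0.0335 CPM in females, with a log2 fold change of 10.95 ± 0.51. LOC298116 was at 0 counts in all 5 females of 28 days, so that the males were at least 377-fold higher against a floor of 3 counts per library. The chromosome of the LOC genes was not matched, and they are not among the 576.

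In steroid and bile acid metabolism, 9 of 36 genes tested were male-higher and 1 female-higher at both times (2.82% and 2.64% of all genes). Hsd11b1, which regenerates active glucocorticoid, was at 754, 570.1, 970.4, 492 and 1036 CPM in the males of 7 days and 32.6, 27.3, 41.6, 12.2 and 31.6 CPM in the females. The sexes did not overlap at either time, with log2 fold changes of 4.72 ± 0.46 and 4.03 ± 0.44. Akr1c3 differed by 7.90 ± 0.50 and 7.25 ± 0.47, and Akr1d1, which reduces steroid double bonds on the path to bile acids, by 1.94 and 1.53. Srd5a1, the steroid 5-alpha-reductase, was the female-higher member, at 868 to 1549 CPM in the females of 7 days against 73.4 to 240.3 CPM in males. Its log2 fold changes were -2.79 ± 0.34 and -2.93 ± 0.34 (adjusted p = 9.69e-06 and 4.53e-06). Cyp7a1, the rate-limiting enzyme of bile acid synthesis, was called after 28 days only, with -0.65 (adjusted p = 0.515) and -2.18 (adjusted p = 0.00916).

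The conjugating enzymes were divided, with 6 of 45 genes male-higher and 6 female-higher at both times (2.82% and 2.64% of all genes). Sult2a6, a hydroxysteroid sulfotransferase, was at 930.5 to 2072 CPM in the females of 7 days and at 56.2 to 101 CPM in the males. Its log2 fold changes were -4.23 ± 0.32 and -5.25 ± 0.33, and Sult2a1 differed by -1.23 and -2.27. Sult2a2 was at 1.13, 0.802, 115, 123 and 1.14 CPM in the females of 7 days, at 649, 167, 0.599, 589.8 and 324 CPM in those of 28 days, and at 0.216 to 0.684 CPM in males. It was high in some females and near the male level in others. On the male side, Sult1c3 differed by 5.08 ± 0.45 and 4.38 ± 0.43, Gstm1, a glutathione transferase, by 1.63 and 1.31, and Inmt, an N-methyltransferase, by 5.41 and 4.88. The males and females overlapped for Inmt after 7 days.

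Among transporters, 7 of 38 genes were male-higher and 2 female-higher at both times (2.82% and 2.64% of all genes). Abcg5 and Abcg8, which form the sterol exporter of the bile canaliculus, were both male-higher, by 2.11 and 1.93 after 7 days and by 2.20 and 2.06 after 28 days. Males and females overlapped at both times for Abcg8.

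Of 13 genes of the growth hormone axis, 1 was called at both times, where 5.45% of all genes tested were. Prlr, the prolactin receptor, was at 1798, 721, 1224, 647 and 1174 CPM in the females of 7 days and 41.3, 2.24, 1.17, 43 and 38.5 CPM in the males. After 28 days it was at 715 to 2151 CPM in females and 30.7, 38.8, 3.85, 0.506 and 28.5 CPM in males. The sexes did not overlap, with log2 fold changes of -5.47 ± 1.00 and -5.80 ± 1.02, and the males fell into low and higher values. Igf1, the circulating growth factor made under growth hormone, and Igfbp2, which binds it, were called after 28 days only. Igf1 differed by 0.40 (adjusted p = 0.167) and 0.61 (adjusted p = 0.0218), a call that was lost without male replicate 3, female replicate 1 or female replicate 2 of 28 days (adjusted p = 0.0544 to 0.062). Igfbp2 differed by -1.99 (adjusted p = 0.0939) and -3.84 (adjusted p = 0.00242). For the receptor Ghr the log2 fold changes were -0.33 ± 0.22 and -0.35 ± 0.22, and for Stat5b -0.11 ± 0.16 and 0.33 ± 0.16, and neither gene passed the test.

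Among 22 transcription factors and nuclear receptors, 2 were male-higher and 3 female-higher at both times (2.82% and 2.64% of all genes). Trim24, a transcriptional cofactor, was at 125, 78.4, 116, 120.0 and 136 CPM in the females of 7 days and 9.26, 4.48, 3.07, 8.7 and 8.04 CPM in the males, with log2 fold changes of -4.11 ± 0.33 and -4.73 ± 0.34. Tox, an HMG-box factor, differed by -4.13 and -5.33. Cux2, a homeobox factor of the female liver, was at 169.7, 189, 157, 209 and 177 CPM in the females of 7 days and 44.3, 2.47, 1.4, 39 and 22.1 CPM in the males. Its log2 fold changes of -3.05 (adjusted p = 0.0347) and -2.93 (adjusted p = 0.0308) came from males that again spread widely, and the call was lost without any of several single rats, replicate 3 of the males of 7 days among them (-2.75, adjusted p = 0.0623). The 2 males of 7 days that were lowest for Prlr, replicates 2 and 3, were also lowest for Cux2, Trim24 and Srd5a1. Nr1i3, the xenobiotic receptor CAR, was male-higher by 2.25 ± 0.35 and 1.63 ± 0.34. Bcl6, a transcriptional repressor, was at 10 to 19.8 CPM in the males of 7 days and 20.8 to 25.9 CPM in the females, all females above all males, with a log2 fold change of -0.57 (adjusted p = 0.514). After 28 days it was at 102, 149.8, 14.3, 23.4 and 20.7 CPM in the males and 15.9 to 22.7 CPM in the females, with 1.68 (adjusted p = 0.0174). Without the highest male, replicate 2, the Bcl6 difference was 1.04 (adjusted p = 0.0925), and at 300 mg/kg/day it was -0.77 and -0.14 at the 2 times, neither called.

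**Figure D3:**
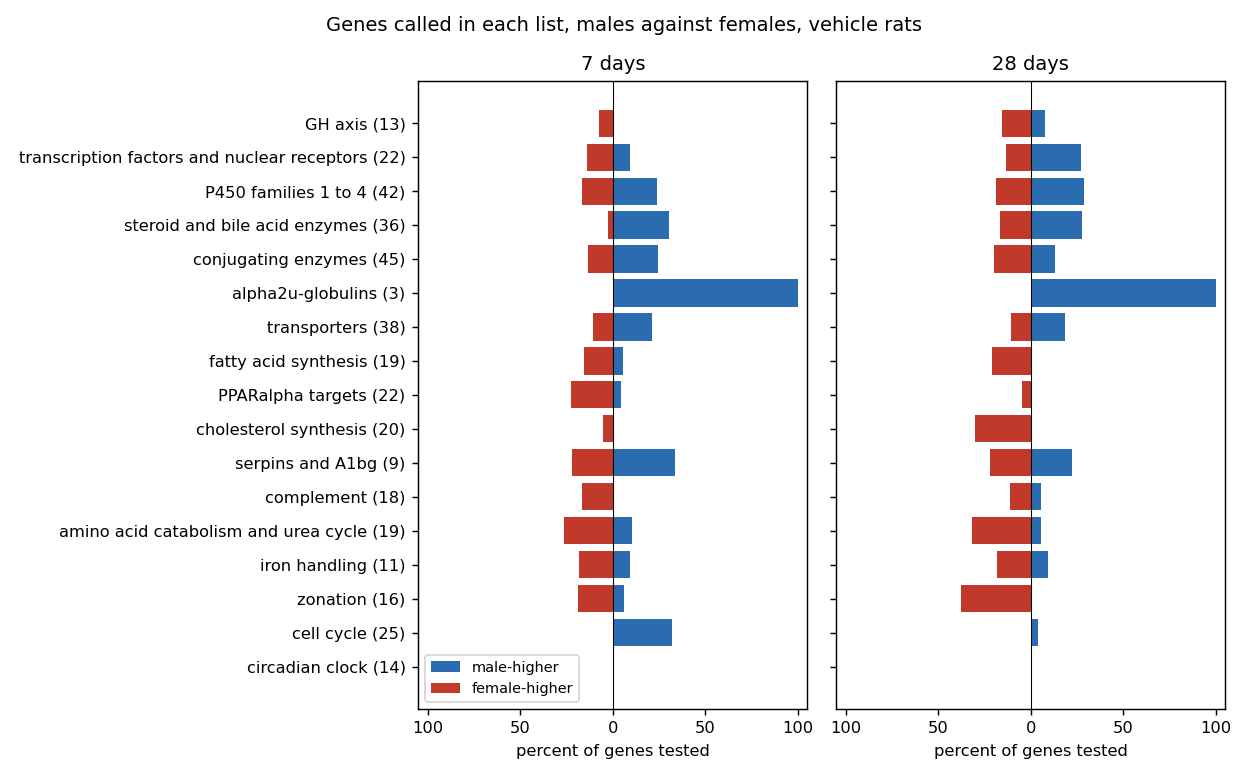
Percent of the genes tested in each list (number tested in parentheses) that were called male-higher (blue, to the right) or female-higher (red, to the left) after 7 and 28 days. Over all genes tested 4.15% and 3.83% were called male-higher and female-higher after 7 days, and 5.79% and 6.02% after 28 days. The 3 alpha2u-globulins passed the filter on low counts through the males alone.

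In lipid metabolism the calls were mostly female-higher. Cd36, a fatty acid transporter, was at 141, 48.7, 95.1, 86.1 and 141 CPM in the females of 7 days and 9.19, 4.93, 3.1, 3.55 and 7.96 CPM in the males. Its log2 fold changes were -4.16 ± 0.50 and -5.03 ± 0.53. Cd36 was the single PPARα target of 22 called at both times, where 5.45% of all genes tested were. Of 19 genes of fatty acid synthesis, 2 were female-higher at both times (2.64% of all genes). These were Thrsp, by -1.66 and -2.37, and Pnpla3, by -2.80 and -2.69. Without female replicate 3 of 7 days, Pnpla3 was at -1.56 (adjusted p = 0.171) after 7 days. Without female replicate 3 of 28 days, a separate rat, it was at -2.25 (adjusted p = 0.053) after 28 days. Its 7-day call was also lost without male replicate 1, 2 or 4 of 7 days (adjusted p = 0.0515 to 0.0588). Of 20 genes of cholesterol synthesis, 1 was female-higher after 7 days and 6 after 28 days (3.83% and 6.02% of all genes). The list's median log2 fold changes were -0.56 and -0.77, beside 0.00026 and -0.011 over all genes tested. Fdps, a synthase of the isoprenoid path, was called at both times, by -1.64 and -1.87. Fasn, the fatty acid synthase, was called after 28 days (-2.48 ± 0.79, adjusted p = 0.0351), where the females of 28 days spread from 49.6 to 1334 CPM. Without the highest of them, replicate 3, the Fasn difference was -0.66 (adjusted p = 0.444).

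Of 19 genes of amino acid catabolism and the urea cycle, 5 were female-higher at both times (2.64% of all genes). Hal, the histidine lyase of periportal hepatocytes, was at 736, 581, 587, 356 and 418 CPM in the females of 7 days and at 122 to 210.5 CPM in the males. Its log2 fold changes were -1.68 ± 0.21 and -0.87 ± 0.21. Hpd, of tyrosine breakdown, differed by -0.71 and -0.86. Of 11 genes of iron handling, 1 was male-higher and 1 female-higher at both times (2.82% and 2.64% of all genes). Id1 was female-higher by -2.20 and -2.14 and Hfe male-higher by 1.03 and 0.95. Of 9 genes of the list of serpins and A1bg, 2 were male-higher and 2 female-higher at both times (2.82% and 2.64% of all genes). Serpina5 and Serpina3m, protease inhibitors, were male-higher, by 1.37 and 1.39 after 7 days and by 1.54 and 0.76 after 28 days. Serpina6, which carries glucocorticoids in plasma, was female-higher by -0.93 and -0.96. None of 14 clock genes was called at either time, where 14.3% of all genes tested were, and the list's medians were 0.29 and 0.41.

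Genes called at a single time were more numerous after 28 days. Among autosomal genes, 273 were called after 7 days only (144 male-higher, 129 female-higher) and 685 after 28 days only (322 and 363). Of the 273, 259 had the same sign at the other time. The median absolute log2 fold change of the 273 was 0.905 where they were called. At the other time their median, taken in the direction of the call, was 0.45. Of the 685, 603 had the same sign, and the medians taken in the same way were 0.825 and 0.333. The difference between the times was tested itself as an interaction in edgeR, and 0 genes were called (0.0% of 11224), with 1169 at an unadjusted p under 0.05 and 11 called by DESeq2.

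Sult1a1, a phenol sulfotransferase, was among the 273 genes called after 7 days only. It was at 498, 417, 549, 298 and 376 CPM in the males of 7 days and 195, 169, 219, 174 and 158 CPM in the females, with a log2 fold change of 1.22 ± 0.18 (adjusted p = 0.000105). After 28 days the sexes overlapped, with 0.20 ± 0.18 (adjusted p = 0.465). Its interaction had an unadjusted p of 0.000704 and an adjusted p of 0.387, the lowest among the 273, so that it is not typical of them. Of the 273, 77 had an unadjusted interaction p under 0.05, where 1169 of 11224 genes tested did. The 273 were chosen on the same values that enter the interaction, so a larger share among them is built in. Arg1, the last enzyme of the urea cycle, and Pdk4, a kinase that holds back pyruvate oxidation, were also called after 7 days only. After 28 days Arg1 had an adjusted p of 0.0453 and missed the fold threshold alone, with a log2 fold change of 0.36. In the rats given 300 mg/kg/day, Sult1a1, Arg1 and Pdk4 were all called after 28 days, at 0.80, 0.86 and -1.87, and Arg1 was not called after 7 days (0.60).

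Of 25 cell cycle genes, 8 were male-higher after 7 days and 1 after 28 days, where 4.15% and 5.79% of all genes tested were, and the list medians were 0.69 and 0.51. Ccnb1, a mitotic cyclin, was at 1.51, 1.18, 3.69, 4.14 and 10.8 CPM in the males of 7 days and 0.996, 1.77, 0.482, 1.15 and 0.803 CPM in the females. The sexes overlapped, and replicates 4 and 5 were the highest males. These rats also had the most reads set aside for low alignment quality in their group, 34.3% and 31.2% against 17.3 to 22.4% in the other males, and the part of this in the cell cycle calls was not tested. Without replicate 5 the Ccnb1 difference was 1.31 (adjusted p = 0.0972). Mki67 had log2 fold changes of 0.74 (adjusted p = 0.275) and 0.19 (adjusted p = 0.771). Kif11, a mitotic motor, was the member called at both times, by 1.23 and 1.11. Its 28-day call was lost without male replicate 1 (0.91, adjusted p = 0.0607) or 3 (0.95, adjusted p = 0.0625), and Kif11 was not called at 300 mg/kg/day (0.40 and 0.70).

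After 28 days Slc1a2, a glutamate transporter of pericentral hepatocytes, was at 33.5, 16.6, 26, 19.2 and 19.2 CPM in females and 9.6, 4.1, 6.99, 5.49 and 8.93 CPM in males (-1.71 ± 0.28, adjusted p = 0.0003). Of 16 zonation genes, 6 were female-higher after 28 days and 3 after 7 days, where 6.02% and 3.83% of all genes tested were. Lgr5, a pericentral gene, was male-higher after 7 days (1.73, adjusted p = 0.0355). Of 11 macrophage markers, C1qa, C1qb, C1qc and Clec4f were female-higher after 28 days and 0 after 7 days, beside the same shares of all genes. Of 6 endothelial markers, Pecam1 was female-higher after 28 days (-0.78, adjusted p = 0.0454), and the list's median was -0.58. The summed level of the macrophage markers was 385 to 968 CPM in the males of 28 days and 1076 to 1267 CPM in the females, and 752 to 1461 CPM against 1006 to 1755 CPM after 7 days. Clec4f, the Kupffer cell lectin, was at 281 to 358 CPM in the females of 28 days and 88.6 to 229 CPM in the males. The part of these cells in the other differences was not tested.

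**Figure D4:**
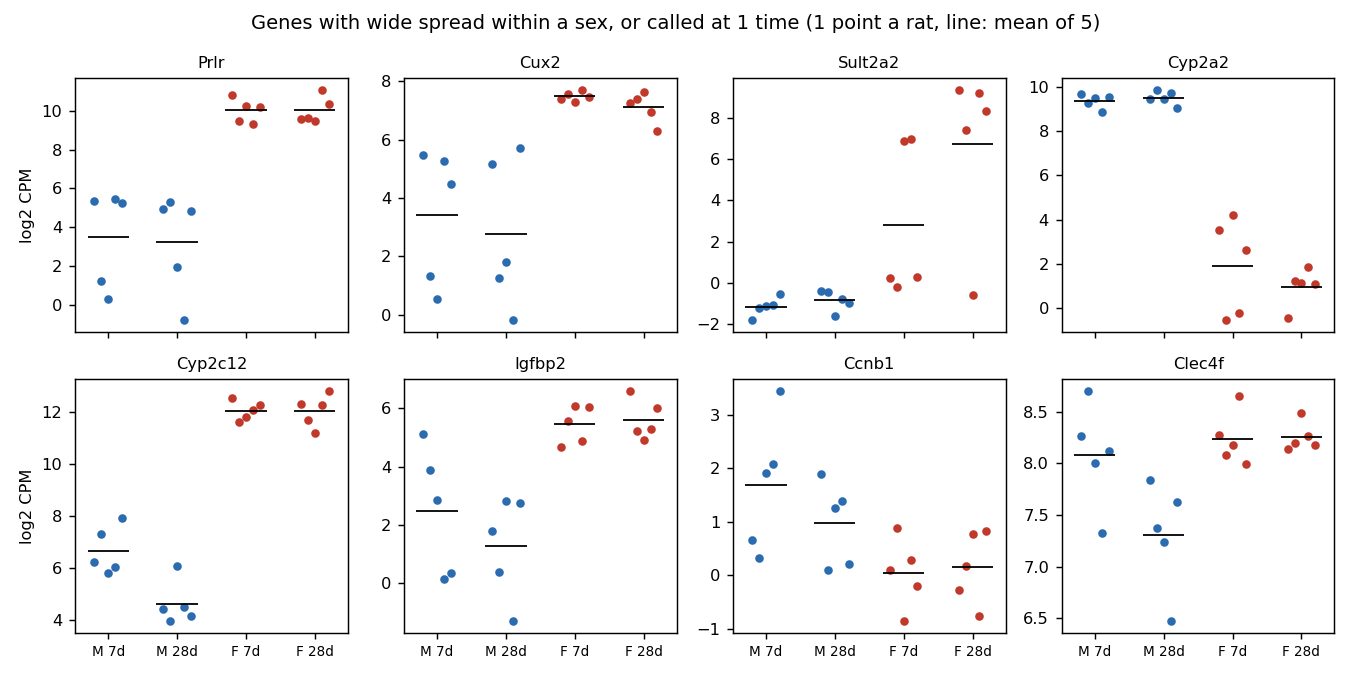
Expression (log2 CPM, y axis) of 8 genes in males (blue) and females (red) after 7 and 28 days, with 1 point a rat and the mean of 5 as a line. Prlr and Cux2 fall into low and higher males, Sult2a2 into low and high females, and Ccnb1 and Clec4f were called at 1 time.

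Traces of male-specific RNA were unevenly spread over the females. Of the 16 autosomal genes at least 100-fold higher in males, 10 were highest in replicate 1 among the vehicle females of 7 days. Cyp2c11 was at 2.16 CPM in this rat, Ddx3 at 0.166 CPM and Eif2s3y at 0.0664 CPM. Without this rat 834 genes were called after 7 days and 528 autosomal genes at both times. Among the vehicle females of 28 days, replicates 4 and 5 were each highest for 7 of the 16 genes. Cyp2c11 was at 0.814 and 0.296 CPM in them, and Eif2s3y at 0 and 0.0741 CPM. Among the females given 300 mg/kg/day for 28 days, replicate 3 was highest for 16 of 16, with Cyp2c11 at 32.7 CPM, Slc22a8 at 8.31 CPM and the Y-linked Eif2s3y at 0.738 CPM. The other 4 females of that group lay at 0.0778 to 1.34 CPM for Cyp2c11 and at 0 to 0.0611 CPM for Eif2s3y. Where this RNA came from was not tested.

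The same comparison was then made in the rats given 300 mg/kg/day, which entered none of the calls above. Over 11201 genes, 711 were called after 7 days (6.35%) and 1459 after 28 days (13.0%), and 5.48% were called at both times. Of the 576 autosomal genes, 570 could be tested and all 570 had the same sign at both times. Of these, 424 (74.4%) were called in the same direction after 7 days, 499 (87.5%) after 28 days and 402 at both times, and 0 were called in the opposite direction. Of the 295 male-higher genes, 227 were called after 7 days, 266 after 28 days and 219 at both times, where 3.28%, 5.16% and 2.89% of all genes tested were male-higher. Of 275 female-higher genes tested the numbers were 197, 233 and 183, where 3.07%, 7.87% and 2.59% of all genes tested were female-higher. Without replicate 3 of the females of 28 days, 573 were tested, 573 had the same sign at both times, and 422 and 486 were called. Its removal raised the 28-day log2 fold change of Cyp2c11 from 8.04 to 11.8 and that of Eif2s3y from 8.16 to 11.0. Of the 273 genes called after 7 days only, 76 were called the same way after 7 days at 300 mg/kg/day and 115 after 28 days. Of the 685 called after 28 days only, the numbers were 63 and 227. Genes that did not pass at this dose include Serpina6, with -0.10 and -0.66, and Thrsp, with -1.37 and -0.43.

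**Figure D5:**
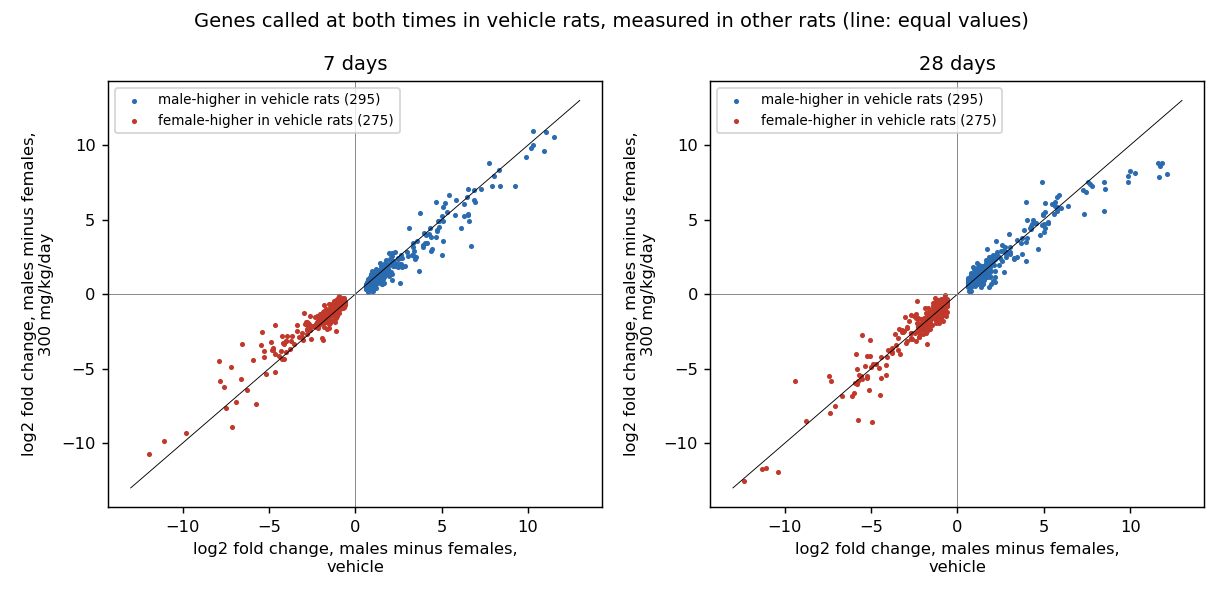
Log2 fold change (males minus females) in vehicle rats (x axis) and in rats given 300 mg/kg/day (y axis), after 7 and 28 days, of the 570 autosomal genes called at both times in vehicle rats and tested at this dose, with the line of equal values. All points lie in the 2 quadrants of equal sign, and after 28 days the largest male-higher genes lie below the line.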

How the data were processed

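Liver RNA of the left lobe was sequenced from stranded mRNA libraries. Per the labels and the study's methods, the authors trimmed reads with Trimmomatic, aligned them to the rat genome Rn6 with Bowtie2 and used HTSeq for counting. The deposited values are raw counts for 17337 genes, with no normalization by the authors. The HTSeq summary lines, 35.5 to 56.7% of the counts of a vehicle rat, entered neither library sizes nor tests. The columns left out for want of a sample number 0, and 0 pairs of rats held identical values. Rats of a group are separate animals.

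The 20 vehicle rats were fitted in 1 model of 4 groups with edgeR 4.0.16 in R 4.3.3 (TMM scaling, its filter on low counts, quasi-likelihood F-test, Benjamini-Hochberg adjustment over all genes tested), and the 20 rats at 300 mg/kg/day in a model of their own. DESeq2 1.42.0 was an alternative. The fit was tested on simulated data. With a 2-fold sex difference, 71% of the changed genes were called after 7 days and 75% after 28 days. With a 4-fold difference, 98% and 99% were called. The simulated difference was the same at both times, so the power of the interaction was not tested. CPM use TMM library sizes, and log2 CPM a prior count of 2. Counting intervals cover counting error only. Symbols were matched to RefSeq (GRCr8) for the chromosome alone: 16941 of 17337 had a match by symbol or synonym. Where a symbol has several promoters, the first listed was used.

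The genes compared, the gene lists and the tests were chosen with earlier results of these data known, so list counts are descriptions. Genes are named as list members, those called at both times with the largest mean difference first, as the 10 autosomal genes each way with the largest mean log2 fold change among those called at both times, without overlap of the sexes and with a mean of at least 1 CPM in the higher sex, or as Y-linked checks. Some genes that met these rules are not reported here. Genes named for spread within a sex, for the fold threshold or for a call at 1 time were picked after their values were seen. The alternatives were another tool, scaling, filter, fold rule, block and set of rats. Another 2, the chromosome by symbol alone and the 300 mg/kg/day check without a female, were added after seeing the data.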

Additional observations from a re-analysis of the deposited data

Results flagged for a closer look

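In 15 of 273 groups of 5 rats examined over the genes named, a rat stood apart from the other 4, by the gap to its neighbour as a share of the group's range on the log2 CPM scale. Chance alone flags about 1 in 20 groups. Among the vehicle females of 7 days, replicate 1 was high for Cpa1 (share 0.763) and Akr1b7 (0.956), replicate 3 was high for Pnpla3 (0.781) and replicate 2 was low for Trim24 (0.711). In the females of 28 days, replicate 1 was high for Hsd11b1 (0.739), replicate 3 was low for Sult2a2 (0.803) and replicate 5 was low for Id1 (0.729). In the males of 7 days, replicate 4 was low for Cyp3a18 (0.847) and LOC298116 (0.741). Replicate 5 of the males of 28 days was low for Ust5r (0.812), Inmt (0.73) and Abcg5 (0.724). In the same group replicate 2 was high for Esr1 (0.735), replicate 3 for Cyp2c12 (0.739) and replicate 1 for Cyp2e1 (0.774).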

How the results depend on the processing

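Of the 576 autosomal genes called at both times, 573 were also called by DESeq2, 571 with DESeq2's size factors, 554 with no filter, 431 with at least 10 counts in every rat and 403 in all 20 fits that left out 1 rat. A test against a fold change of 1.5 (glmTreat) called 327 genes after 7 days, 403 after 28 days, 240 autosomal genes at both times, 65 after 7 days only and 135 after 28 days only. With no fold threshold 411 autosomal genes were called after 7 days only and 1127 after 28 days only. DESeq2 called 11 genes in the interaction. Leaving out 1 rat gave 739 to 930 genes after 7 days, 1075 to 1387 after 28 days, 521 to 597 autosomal genes at both times, 181 to 343 after 7 days only, 493 to 761 after 28 days only and 0 to 1 in the interaction. The 181 came without replicate 3 of the females of 7 days, and the 1 without replicate 5 of the females of 28 days. At 300 mg/kg/day the ranges were 576 to 885 after 7 days and 1201 to 1559 after 28 days. No call of a named gene reversed in any alternative run, and among those lost in some were Cux2, Fasn, Bcl6, Pnpla3, Ccnb1, Kif11, Igf1, Abcg8 and Thrsp. With the replicate number as a block, 821 genes were called after 7 days, 1229 after 28 days, 551 autosomal genes at both times (513 of the 576 among them), and 0 in the interaction. The deviations of rats with the same number correlated at 0.0316 to 0.292 after 7 days, 4 of 5 over 0.1, and at -0.183 to 0.0745 after 28 days. Whether rats with the same number share anything beyond it was not tested. The motif share in the 250 bases before the start was 4.4% over both directions. Genes at a few counts in a sex are limited by depth. Counting intervals are given for Cyp4a2 and Hsd3b5 after 28 days, and floors for Slc22a25 and LOC298116. Nox4, Obp3 and Akr1c3 held 11, 4 and 6 counts in the females of 7 days together. No interval is given for them, and the size of their differences is uncertain in the same way. The cause of these changes was not tested.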

Other observations

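Of 313 X-linked genes tested, 33 were called after 7 days, 42 after 28 days and 24 at both times, beside 849, 1261 and 576 of 10746 autosomal genes. Averaged over the autosomal genes called at both times, male-higher minus female-higher log2 CPM lay between 1.21 and 2.09 in the vehicle males and between -2.71 and -2.27 in the vehicle females. In the rats given 300 mg/kg/day, which did not enter the choice of these genes, it lay between 0.989 and 1.99 in males and between -2.82 and -2.09 in females.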
